A study of Mus musculus with 4 samples.

Results

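Open chromatin around 9 genes of the BCL2 family (Bcl2, Bcl2l1, Mcl1, Bax, Bak1, Bcl2l11, Bbc3, Bid and Bmf) was examined by ATAC-seq in epidermal keratinocytes. The genes were chosen by name, and their members here were the open regions that overlapped a gene body or the 25 kb on either side of it, which gave 74 of the 82641 regions found in the 4 libraries together. Such windows also take in neighbouring genes and their promoters. ATAC-seq inserts sequencing adapters into accessible DNA, so that fragments pile up where chromatin is open. The libraries were 2 from wild type mice (WT; littermates served as controls) and 2 from Mapk8-KO mice, in which Mapk8, the gene for the kinase JNK1, was deleted in the epidermis by a floxed allele and a Cre driven by the keratin 14 promoter (Mapk8 fl/fl with K14-Cre). All mice were female C57BL/6 animals of 8 to 12 weeks whose skin had been treated with a cream containing 5% imiquimod for 8 days, so that both genotypes were in the inflamed state and untreated skin was not part of the comparison. Keratinocytes were sorted as EpCam+ CD49f-hi cells. WT 1, WT 2, Mapk8-KO 1 and Mapk8-KO 2 below are the libraries by genotype and replicate number.

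The proteins of the BCL2 family decide whether the outer mitochondrial membrane stays intact. BCL2, BCL-XL and MCL1 hold the executioners BAX and BAK in check, and the BH3-only proteins BIM, PUMA, BID and BMF release that brake or activate the executioners directly, after which cytochrome c leaves the mitochondrion and caspases are switched on. JNK kinases act on this system both by phosphorylating members such as BIM and BMF and through JUN, a subunit of the transcription factor AP-1, which binds the letters TGACTCA or their reverse complement TGAGTCA.

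Of the 74 regions, 16 held an AP-1 motif within 100 bp of the strongest summit, a share of 21.6% beside 23.7% of all regions. None of the regions of Bcl2 or Bcl2l1 did. The motif-bearing region with the highest mean fold is shown for 6 genes because AP-1 contains JUN, one of the targets of JNK kinases. A match is a description of the letters and not evidence of binding. Each window holds 101 bases, is centred on a motif, runs along the strand of the gene and has every AP-1 motif in capitals (mm10). They lie at chr3:95650737-95650837 (Mcl1, plus strand), chr17:27038403-27038503 (Bak1, minus), chr2:128172485-128172585 (Bcl2l11, plus), chr7:16326307-16326407 (Bbc3, plus), chr6:120927900-120928000 (Bid, minus) and chr2:118571113-118571213 (Bmf, minus). The Bak1 window holds 2 motifs and each of the others 1.
Mcl1: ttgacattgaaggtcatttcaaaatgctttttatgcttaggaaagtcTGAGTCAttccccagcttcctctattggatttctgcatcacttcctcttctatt
Bak1: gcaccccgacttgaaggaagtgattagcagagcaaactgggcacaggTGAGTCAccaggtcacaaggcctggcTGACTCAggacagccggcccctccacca
Bcl2l11: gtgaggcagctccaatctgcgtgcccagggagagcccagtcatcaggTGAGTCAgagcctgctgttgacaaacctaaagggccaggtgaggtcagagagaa
Bbc3: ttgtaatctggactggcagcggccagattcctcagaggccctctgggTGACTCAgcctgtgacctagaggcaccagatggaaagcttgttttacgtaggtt
Bid: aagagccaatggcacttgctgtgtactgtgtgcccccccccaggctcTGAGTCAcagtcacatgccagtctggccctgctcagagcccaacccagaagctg
Bmf: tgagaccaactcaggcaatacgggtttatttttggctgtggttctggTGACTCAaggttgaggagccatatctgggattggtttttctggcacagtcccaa
The CRE palindrome and the p53 family consensus (a pair of decamers with a spacer of at most 1 base), searched in the same way, were found in 0 of the 74 regions and in 0.772% and 0.0448% of all regions.

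The 3 promoters below mark the contrast in openness among members that is described next. They are the 250 bases upstream of a RefSeq transcript start (GRCm38.p6), along the strand of the gene, with every CpG in capitals. They were taken at chr3:95658471-95658720 (Mcl1, plus), chr7:45466899-45467148 (Bax, minus) and chr7:16309333-16309582 (Bbc3, plus). They hold 26, 14 and 27 CpG, beside a median of 6 and quartiles of 2 and 16 over the 32851 promoters of the table. None of the 3 contains an AP-1 motif, which 4.46% of all these promoters do.
Mcl1 promoter: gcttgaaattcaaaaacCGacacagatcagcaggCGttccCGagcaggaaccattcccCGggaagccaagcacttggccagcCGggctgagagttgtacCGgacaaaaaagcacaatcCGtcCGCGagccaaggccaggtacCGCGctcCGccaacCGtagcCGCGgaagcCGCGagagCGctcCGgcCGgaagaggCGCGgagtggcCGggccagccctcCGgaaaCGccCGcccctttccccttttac
Bax promoter: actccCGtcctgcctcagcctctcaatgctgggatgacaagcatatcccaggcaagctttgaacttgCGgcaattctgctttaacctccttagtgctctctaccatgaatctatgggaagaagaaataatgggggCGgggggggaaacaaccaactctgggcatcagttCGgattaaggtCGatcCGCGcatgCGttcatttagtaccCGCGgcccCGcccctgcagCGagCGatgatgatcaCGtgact
Bbc3 promoter: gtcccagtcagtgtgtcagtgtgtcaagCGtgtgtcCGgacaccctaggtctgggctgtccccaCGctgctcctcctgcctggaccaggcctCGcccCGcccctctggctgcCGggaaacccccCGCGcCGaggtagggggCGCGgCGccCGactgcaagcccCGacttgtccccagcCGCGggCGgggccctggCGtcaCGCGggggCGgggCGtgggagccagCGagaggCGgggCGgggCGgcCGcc

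The libraries differed in depth, and the lists of open regions with them. WT 1 and Mapk8-KO 1 held 69927 and 69583 peaks, and WT 2 and Mapk8-KO 2 held 54856 and 49856. Depth was taken from the pileup at the summit, the number of fragments covering it, over the 40159 regions called in all 4 libraries. Its median ratio to WT 1 was 0.694 (WT 2), 1.12 (Mapk8-KO 1) and 0.646 (Mapk8-KO 2), and scaled pileups below were divided by this ratio. The log2 differences below were centred by library medians instead (49, 34, 54 and 30 in the order WT 1, WT 2, Mapk8-KO 1, Mapk8-KO 2). Scaled pileups therefore need not reproduce them exactly. Promoter regions were called at all 7 keratinocyte marker genes, although those of Krt5 and Col17a1 were called in WT 1 and Mapk8-KO 1 only, and at 1 of 5 leukocyte genes (Cd68, with Ptprc, Cd3e, Itgam and Cd207 without a call), 2 of 3 endothelial genes, 2 of 4 fibroblast genes and 3 of 4 melanocyte genes. The melanocyte promoters were called in every library at 8.18 to 14.5 fold. Also called in every library were Cd68 (5.93 to 7.12), Pecam1 (8.47 to 13), Pdgfra (6.09 to 7.5) and Col1a1 (4.67 to 9.08). The keratinocyte gene Epcam had 6.27 to 7.84. The part of other cell types in the results below was not tested. The leading promoter region of Krt14 had a fold of 4.35 in WT 1, no call in WT 2, and 15.5 and 14.6 in Mapk8-KO. The Cre comes from a KRT14-cre transgene, and whether that bears on this contrast was not tested. The promoter of Mapk8 was called in all 4 libraries, an open promoter that does not check the deletion.

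Of the 9 genes, 8 had open chromatin within 2 kb of a start in both genotypes and Bax in WT only, and the windows differed widely in how many open regions they held. They also differed in length, from 54.4 kb (Mcl1) to 226 kb (Bcl2). Per 100 kb, Bbc3 had the most regions (16.7) and Bcl2 the fewest (3.98), with 12.9 for Bcl2l1 and 7.25 for Bax. Of the 74 regions, 61 and 53 were called by WT 1 and WT 2, and 63 and 42 by Mapk8-KO 1 and Mapk8-KO 2, against 83.8%, 65.2%, 83.2% and 59.1% of all regions. The 2 deeper libraries were the high ones and Mapk8-KO 2 was the low one, so the genotypes overlapped: WT had 57 ± 5.66 calls and Mapk8-KO had 52.5 ± 14.8 (SD, n = 2 each), a difference of 4.5 (two-sided exact permutation test, p = 1, where 0.333 is the smallest p that 2 against 2 can give). Without WT 1 the difference was 0, without Mapk8-KO 1 it was 15, and without Mapk8-KO 2 it turned to -7. Of the 74 regions, 34 (45.9%) were called in all 4 libraries, beside 48.6% of all regions. Another 11 (14.9%) were called everywhere except in Mapk8-KO 2, beside 9.91% of all regions, 5 (6.76%) everywhere except in WT 2, beside 4.86%, 1 (1.35%) everywhere except in WT 1, beside 0.558%, and 0 were missing in Mapk8-KO 1 alone (0.382% of all). The 2 deeper libraries alone called 5 regions (6.76%, beside 7.91% of all). The tallest pileup of a region had a median of 15.5 fragments for the 14 regions called once and of 48 for the 34 called in every library. Peaks are called on pileup, and shared regions take the tallest of 4 values, so this direction was largely built in.

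**Figure D1:**
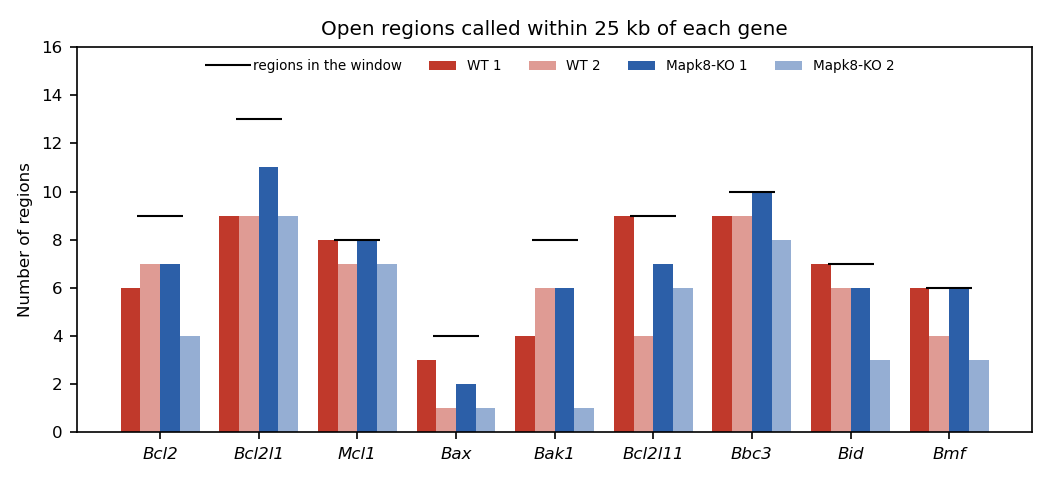
Number of open regions called in each library (bars; WT in red, Mapk8-KO in blue, replicate 2 paler) among the regions of each gene's window (black line). Counts are not scaled to window length. Bcl2l1 has the most regions (13) and Bax the fewest (4), and Mapk8-KO 2 (calls in 59.1% of all regions) has calls in 1 of the 8 Bak1 regions.

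Most of the regions lay away from promoters. A promoter of the member itself, within 2 kb of a start, held 16 of them, the promoter of a neighbour held 6, and 52 lay outside promoters. By annotation, 28 were in introns of the member and 29 lay between genes, and for 40 the member had the nearest start. Regions called in all 4 libraries made up 8 of the 16 own promoters, beside 65.9% of all promoter regions, and 23 of the 52 regions outside promoters, beside 42.3% of all of those. The 34 shared regions had lower ranks than shared regions in general. Ranked by fold within each library's own list, their median percentile was 55.3 and 42.2 in the WT libraries and 55.5 and 37.3 in the Mapk8-KO libraries, where all regions called in 4 libraries had 68, 60.8, 69.3 and 58.6. Fold here is the pileup at the summit over the background the peak caller expected, with 1 added to both.

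**Figure D2:**
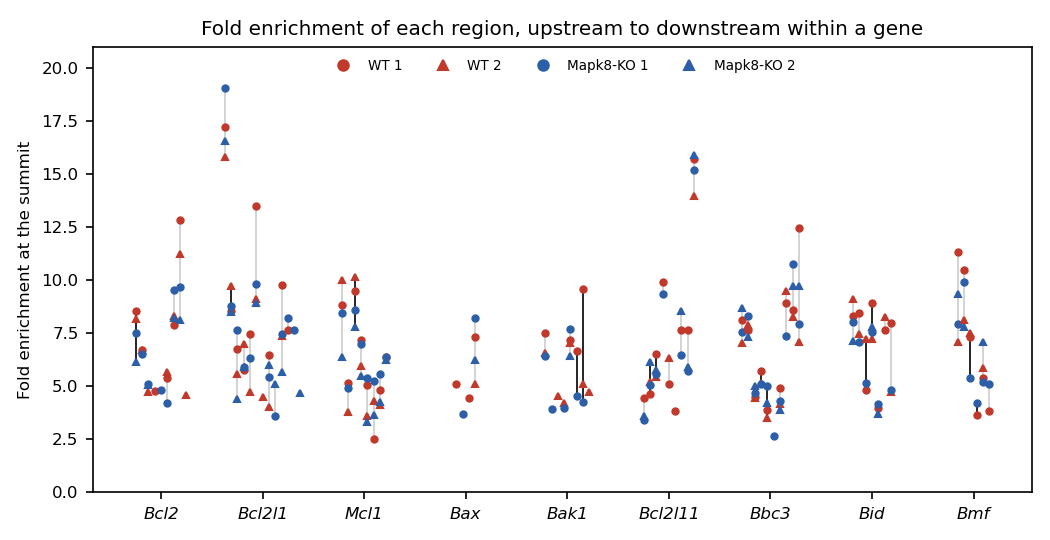
Fold enrichment at the summit (linear axis) of each of the 74 regions, ordered from upstream to downstream within a gene, with 1 point per library that called the region (circles replicate 1, triangles replicate 2) and a line joining the lowest and highest (black for the gene's own promoter). The highest points belong to the Tpx2 promoter in the window of Bcl2l1 (up to 19.1) and to a region beyond the end of Bcl2l11 (14 to 15.9).

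Among the guardians, all 3 genes had a promoter that was open in every library. Bcl2l1, which encodes BCL-XL, the guardian with a long-known part in keratinocyte survival, had the tallest own promoter of the 9 genes. Its region (chr2:152830551-152831826, 263 bp into the gene and 1276 bp wide) had a pileup of 88 and 69 (WT 1 and WT 2) and of 98 and 65 (Mapk8-KO 1 and Mapk8-KO 2), or 88, 99.4, 87.8 and 101 once scaled to the depth of WT 1. The genotypes overlapped. The difference, given here and below as the log2 of the centred pileup in Mapk8-KO minus WT with its SE from limma, was 0.05 ± 0.19, with a 95% interval of -0.31 to 0.42 (adjusted p = 0.948), and its sign turned to -0.11 after a correction for GC content.

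The promoter of Mcl1, which encodes a short-lived guardian with rapid turnover, was the next in height among guardians (chr3:95658417-95658975, sequence above). Its pileup was 61, 45, 59 and 35 in the order WT 1, WT 2, Mapk8-KO 1, Mapk8-KO 2, and its fold was 9.5, 10.1, 8.62 and 7.82. Both WT libraries were above both Mapk8-KO libraries after depth scaling, at 61 and 64.8 against 52.8 and 54.2. The difference of -0.19 ± 0.22 did not pass limma (interval -0.62 to 0.25, limma adjusted p = 0.802) and was -0.36 after GC correction. Bcl2, the founding member of the family, had the lowest promoter of the 3 guardians (chr1:106713874-106714692), with a pileup of 33, 28, 36 and 20 and a scaled pileup of 33, 40.3, 32.2 and 31. WT 2 stood above the other libraries and the difference was -0.16 ± 0.28 (interval -0.71 to 0.39, limma adjusted p = 0.879). It was -0.35 after GC correction, -0.26 on the fold scale, -0.33 without WT 1 and -0.00 without WT 2.

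**Figure D3:**
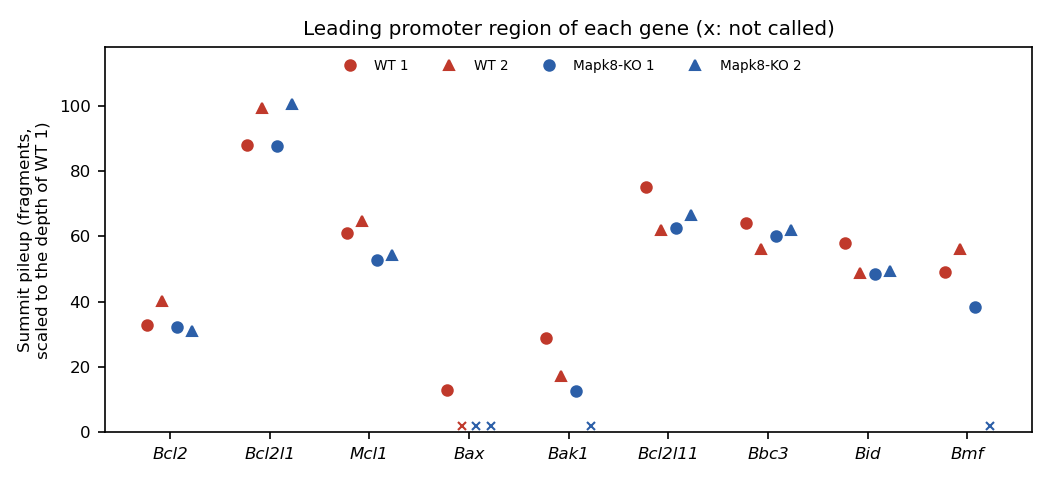
Summit pileup of the leading promoter region of each gene, in fragments scaled to the depth of WT 1 (linear axis), with 1 point per library and crosses for libraries without a call. Bcl2l1 is the tallest (87.8 to 101), Bax was called in WT 1 only (13), and Bak1 and Bmf had no call in Mapk8-KO 2.

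Outside promoters, the window of Bcl2 spans a gene of 176097 bp and held 9 regions, of which 3 were called in all 4 libraries. The most open one lay beyond the 3' end of the gene, 188013 bp from its start (chr1:106526013-106526430), and went the same way as the promoter. Its pileup was 47, 34, 35 and 23 and its fold was 12.8, 11.3, 9.69 and 8.12, so that both WT libraries were above both Mapk8-KO libraries. Its percentile in the 4 lists was 89.3, 81.1, 72.8 and 58.1, and the difference in pileup was -0.47 ± 0.26 (interval -0.99 to 0.04, limma adjusted p = 0.493). The nearest start to this region is that of D630008O14Rik, so its link to Bcl2 rests on the window alone. A region within the large intron of Bcl2, 111616 bp from the start, differed the other way, by 0.29 ± 0.27 (limma adjusted p = 0.737).

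Bcl2l1 had 13 regions, 7 of them in all 4 libraries, most in its long introns. The intronic region 26737 bp downstream of the start (chr2:152804474-152805152) had a pileup of 69, 36, 45 and 28, and the scaled pileup of 69 and 51.8 in WT lay above the 40.3 and 43.3 in Mapk8-KO. WT 1 was far above the rest. The difference was -0.47 ± 0.24 (limma adjusted p = 0.44), with -0.21 on the fold scale and -0.29 without WT 1. A smaller intronic region 45873 bp downstream (chr2:152785718-152785984) was the sole one of the 74 with a call in each Mapk8-KO library and none in WT, at a pileup of 13 and 14, where the lowest pileup called was 10 and 8. Upstream, the window took in the promoter of Tpx2, which encodes a spindle protein, and that neighbour was the tallest region of all 74 in Mapk8-KO 1 (pileup 96, 61, 121 and 66, difference 0.24 ± 0.18, limma adjusted p = 0.655).

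In the window of Mcl1, 6 of 8 regions were called in all 4 libraries. The AP-1 region 7979 bp upstream of the start, whose sequence is given above, had a pileup of 37, 31, 45 and 20, and Mapk8-KO 2 was the low library. The difference of -0.15 ± 0.27 (interval -0.68 to 0.37, limma adjusted p = 0.878) turned to 0.04 without Mapk8-KO 2. The 4 shared regions downstream of Mcl1 had differences of -0.06 to 0.38 and lay low in their lists, with folds of 2.51 to 7.2.

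By pileup, the leading promoter regions of the executioners were the lowest of the 9. Bax, a pore-forming protein that moves to mitochondria when activated, had a promoter call in WT 1 only (chr7:45466695-45466982), at a pileup of 13 and a fold of 4.47. A missing call sets no level at 0, since the lowest pileup called was 8 or 9 in WT and 8 or 10 in Mapk8-KO, and the 5th percentile of pileups was 11 to 14. The one region of the Bax window open in all 4 libraries overlapped an exon of Ftl1, the ferritin light chain gene, with the start of Gm10252 nearest. Its pileup was 22, 12, 28 and 15 and its difference 0.36 ± 0.32 (limma adjusted p = 0.721). A motif-bearing region upstream of Bax was called in WT 1 only and overlapped a UTR of Nucb1, so its sequence is not shown.

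Bak1, whose product sits in the mitochondrial membrane as the partner of BAX, had its own promoter called in 3 libraries. The stronger region, 1524 bp into the gene (chr17:27027403-27027661) and with an AP-1 motif, had a pileup of 29, 12 and 14 and a fold of 9.58, 5.13 and 4.26 in WT 1, WT 2 and Mapk8-KO 1 and no call in Mapk8-KO 2. Scaled to depth, WT 1 stood far above the others, which were at 17.3 and 12.5. A second region, 403 bp into the gene, was called in the replicate 1 libraries only (20 and 15). The single Bak1 region open in all 4 libraries was the upstream one with the pair of AP-1 motifs (9524 bp from the start, chr17:27038325-27039004), which lies nearer to the start of Ggnbp1. Its pileup was 55, 36, 70 and 41. Scaled to depth it was 55 and 51.8 in WT against 62.7 and 63.5 in Mapk8-KO, without overlap, and the difference was 0.29 ± 0.22 (interval -0.15 to 0.72, limma adjusted p = 0.661). The folds overlapped, at 7.17 and 7.04 against 7.73 and 6.43, and the difference was 0.03 on the fold scale and 0.14 after GC correction. Mapk8-KO 2 called 1 region of the Bak1 window, against 4 in WT 1, 6 in WT 2 and 6 in Mapk8-KO 1. Of all regions it called 59.1%, the lowest share, beside 83.8%, 65.2% and 83.2% in those libraries. In the Bax window WT 1, WT 2, Mapk8-KO 1 and Mapk8-KO 2 called 3, 1, 2 and 1.

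Among the BH3-only genes, Bcl2l11, which encodes BIM, a potent activator of BAX and BAK and a target of JNK, had both of its promoter regions open in every library. The first lay at the start (chr2:128125705-128126331) with a pileup of 54, 42, 64 and 46, and the second was 1501 bp further (chr2:128127240-128128165), at a start used by other transcripts, with 75, 43, 70 and 43. They differed by 0.21 ± 0.22 and -0.03 ± 0.21 (limma adjusted p = 0.769 and 0.978), and the second was -0.21 after GC correction. Both were broad in GC-rich DNA (68.1% and 69.2%) and low in their lists, with folds of 4.64 to 6.54. The most open region of the window was an AP-1 region 46474 bp downstream of the start, past the 3' end of the gene (chr2:128172190-128172791, sequence above). Its pileup was 96, 60, 107 and 67, its fold was 15.7, 14, 15.2 and 15.9, and it ranked at the percentiles 96.9, 93.4, 95.8 and 98. The groups overlapped in fold, and the difference in pileup was 0.18 ± 0.19 (interval -0.19 to 0.54, limma adjusted p = 0.769). An intronic region 22647 bp downstream (chr2:128148571-128148944) was called in both WT libraries, at a pileup of 15 in each, and in neither Mapk8-KO library.

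Bbc3 encodes PUMA, a BH3-only protein best known as a target of p53, and its window was the one in which most regions were called throughout, 8 of 10. The promoter region with the higher fold (chr7:16309182-16309779, 310 bp upstream, with an AP-1 motif and overlapping the sequence above) had a pileup of 64, 39, 67 and 40. The difference of 0.07 ± 0.22 (interval -0.36 to 0.50, limma adjusted p = 0.94) turned to -0.11 after GC correction and to -0.06 on the fold scale. The second, 595 bp into the gene in a stretch of 75.6% GC (chr7:16310002-16310460), had a pileup of 45, 27, 67 and 34. Scaled to depth, 45 and 38.9 in WT lay below 60 and 52.6 in Mapk8-KO, and the difference of 0.47 ± 0.24 was the largest positive one of the 34 regions in this fit (interval 0.00 to 0.94, limma adjusted p = 0.441). It was 0.28 after GC correction, below the 0.39 of the AP-1 region described next, and 0.39 without Mapk8-KO 1, below the 0.66 of the Ccdc9 promoter.

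In 7 of the 8 shared regions in the window of Bbc3 the difference was above 0, with a median of 0.24, where 57.4% of all regions tested were above 0 and their median was 0.05. After GC correction 6 of 8 were above 0 with a median of 0.11, against 53.1% and 0.02 of all regions, on the fold scale 5 of 8 were, with median-ratio centring 6 of 8, and without WT 2 5 of 8 (62.5%, beside 58% of all). The promoter of the neighbour Ccdc9, 23183 bp upstream, had 70, 46, 82 and 67, and Mapk8-KO 2 was the high library after scaling (104 against 66.2 to 73.4). Its difference was 0.41 ± 0.20 (limma adjusted p = 0.425), and it moved to 0.16 without Mapk8-KO 2, to 0.66 without Mapk8-KO 1, to 0.14 on the fold scale and to 0.25 after GC correction. The AP-1 region in an intron of Sae1, 16789 bp downstream of the start of Bbc3 (chr7:16326269-16326661, sequence above), had 26, 20, 37 and 24. Its fold was 8.62 and 8.29 in WT and 10.8 and 9.74 in Mapk8-KO, and the difference in pileup was 0.41 ± 0.29 (interval -0.16 to 0.97, limma adjusted p = 0.625).

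Bid, which links death receptors to mitochondria once caspases cleave it, had its promoter open in all 4 libraries (chr6:120916418-120917146). The pileup was 58, 34, 54 and 32, the groups overlapped once scaled, and the difference was -0.08 ± 0.23 (interval -0.54 to 0.39, limma adjusted p = 0.942) and -0.25 after GC correction. The AP-1 region 11063 bp upstream of Bid (chr6:120927762-120928175, sequence above) had the largest negative difference of the 34 in this fit. Its pileup was 42, 33, 37 and 18, or 42 and 47.5 in WT against 33.1 and 27.9 in Mapk8-KO once scaled, without overlap. The difference was -0.51 ± 0.27 (interval -1.04 to 0.02, limma adjusted p = 0.472), and it was -0.16 on the fold scale. A second AP-1 region 10201 bp upstream was called in every library but Mapk8-KO 2, with 43, 27 and 33. The other region of the 74 that both WT libraries called and both Mapk8-KO libraries lacked was intronic in Bid (chr6:120894782-120895154, 21847 bp downstream), with a pileup of 23 and 20.

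Bmf, a BH3-only protein that is tethered to the cytoskeleton and released when cells lose attachment, had 6 regions and no other gene in its window. Its leading promoter region lay 2023 bp into the gene at a second start (chr2:118547400-118547795), with 49, 39 and 43 and no call in Mapk8-KO 2. RefSeq places a further start of Bmf in a region 5205 bp into the gene (chr2:118544274-118544858), which was called in all 4 libraries with 38, 30, 43 and 43 and a difference of 0.37 ± 0.25 (limma adjusted p = 0.605). The most open region outside promoters, 4756 bp upstream, had a fold of 10.5, 8.15, 9.92 and 7.81 and a difference of -0.02 ± 0.26 (limma adjusted p = 0.988). The AP-1 region 21511 bp upstream had a pileup of 39, 18, 27 and 23. Scaled to depth it was 39 and 25.9 in WT and 24.2 and 35.6 in Mapk8-KO, so the genotypes overlapped, and the difference was -0.07 ± 0.29 (interval -0.64 to 0.50, limma adjusted p = 0.959).

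Across the 9 genes, no shared region passed the test for a difference between genotypes. limma, fitted to all 40159 regions called in all 4 libraries, called 0 of the 34 at an adjusted p of 0.05, beside 0.605% of all regions, and the same 0 came from every other setting tried, with a lowest adjusted p of 0.0643 without Mapk8-KO 1. At an unadjusted p of 0.05, 3 of the 34 passed (8.82%, beside 11.3% of all regions): the intronic Bcl2l1 region, the Ccdc9 promoter and the Bbc3 region 595 bp into the gene. Of the 34 differences, 15 were below 0 (44.1%, beside 42.6% of all), and their median was 0.04 beside 0.05. Both WT libraries were above both Mapk8-KO libraries in 6 of 34 (17.6%, beside 16.9%), and the reverse held in 10 (29.4%, beside 24.6%). The SE of a difference had a median of 0.255 log2 units, so that single intervals reached as far as -1.04 and 0.98. A difference inside the interval of its region was not excluded here. In sorted cells measured in bulk, a region open in fewer cells and a region less open in each cell cannot be told apart.

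**Figure D4:**
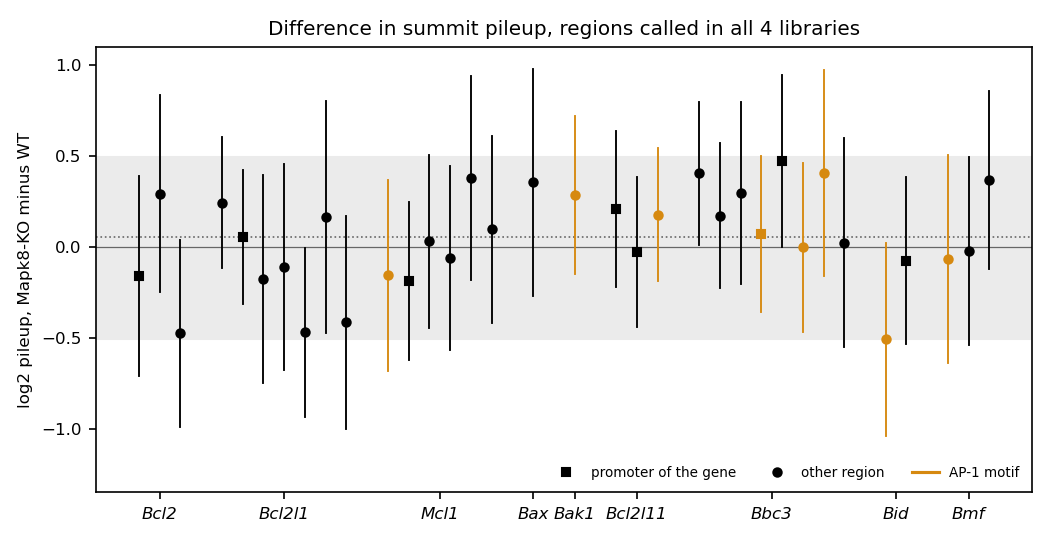
Difference in log2 summit pileup, Mapk8-KO minus WT, of the 34 regions called in all 4 libraries (points; squares for the gene's own promoter, orange for an AP-1 motif) with 95% intervals from limma. The grey band spans the 5th to 95th percentile of all 40159 regions (-0.51 to 0.50) and the dotted line is their median (0.05); all but the Bid region at -0.51 lie inside it.

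Calls and ranks also singled out few of the regions. Regions that both WT libraries called and both Mapk8-KO libraries lacked were 2 of 74 (2.7%, beside 2.17% of all), and the reverse held for 1 (1.35%, beside 1.65%). With a library left out, and so fewer to satisfy, the first count was 6 without WT 1 (8.33% of the member regions, beside 4.84% of all), 6 without WT 2 (8.57%, beside 11.5%), 13 without Mapk8-KO 1 (18.8%, beside 13.2%) and 2 without Mapk8-KO 2 (2.7%, beside 2.61%). The second was 6 without WT 1 (8.33%, beside 7.14%), 2 without WT 2 (2.86%, beside 2.26%), 2 without Mapk8-KO 1 (2.9%, beside 4.03%) and 7 without Mapk8-KO 2 (9.46%, beside 10.3%). A rank gap, in which the lowest percentile of one genotype was at least 10 points above the highest of the other, was found in 0 of 34 regions in either direction, beside 2.65% of all regions for WT and 3.78% for Mapk8-KO. For WT, leaving out a library gave 0 without WT 1 (beside 5.36% of all), 9 without WT 2 (23.1%, beside 11.2%), 7 without Mapk8-KO 1 (20.6%, beside 20.6%) and 3 without Mapk8-KO 2 (6.67%, beside 5.84%). For Mapk8-KO it gave 6 without WT 1 (16.7%, beside 17.6%), 0 without WT 2 (beside 7.94%), 2 without Mapk8-KO 1 (5.88%, beside 7.93%) and 7 without Mapk8-KO 2 (15.6%, beside 13.6%). When percentiles were instead taken among the 40159 shared regions, which removes the effect of list length, 2 of 34 were higher in WT (beside 4.65%) and 1 in Mapk8-KO (beside 4.07%). The 2 were both regions of Bcl2. Its promoter was at the percentiles 43.1 and 44.4 in WT and 30.9 and 23.4 in Mapk8-KO, and the region 188013 bp downstream was at 82 and 74.9 against 55.2 and 49.4. The 1 was the AP-1 region downstream of Bbc3, at 44.2 and 45.9 in WT and 65.2 and 67.1 in Mapk8-KO.

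Of the 8 shared regions with a motif, 4 were lower in Mapk8-KO, with a median difference of 0.03 and a range from -0.51 (Bid) to 0.41 (Bbc3), beside 61.6% lower and a median of -0.08 for all 9815 tested regions with a motif. The 26 without a motif had a median of 0.04, beside 0.09 for all 30344 such regions. By location, the 11 promoters in the windows, neighbours included, had a median of 0.07 beside 0.14 for all tested promoters, and the 23 regions outside promoters had 0.02 beside -0.01.

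The rest of the pathway was read at promoters. Of 14 other BCL2 family genes, 13 had a promoter region and 9 had one in all 4 libraries, of which 0 passed limma in either direction. Their differences ran from -0.28 to 0.52, with the highest at Bad, whose product neutralizes BCL-XL (0.52 ± 0.24, limma adjusted p = 0.395). Pmaip1, which encodes the MCL1 antagonist NOXA, had 0.41 ± 0.19 (limma adjusted p = 0.38). The promoter of Bcl2a1b was called at a pileup of 12 and 8 in WT and not at all in Mapk8-KO, in a cluster of near-identical copies whose reads may be shared. All 13 mitochondrial and caspase genes had a promoter region, and 12 had one in all 4 libraries, again with 0 passing limma. Of the 12 differences 4 were below 0, the lowest at Birc5, an inhibitor of apoptosis with a role in cell division (-0.33). The highest was 0.56 ± 0.17 at Birc2, another inhibitor of apoptosis (limma adjusted p = 0.091). The 5 genes of the JNK module (Mapk8, Mapk9, Map2k4, Map2k7 and Jun) all had a promoter open in every library, with differences of 0.01 to 0.27 and 0 calls.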

How the data were processed

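ATAC-seq was deposited as 1 peak list per library (2 WT, 2 Mapk8-KO). Per the study's methods, the authors aligned reads to mm10 with Bowtie2, whereas the submitters' processing notes list Trimmomatic 0.36, STAR 2.5.3, Picard, SAMtools and MACS2, and called peaks per library with MACS2 on paired fragments at a stated q of 0.05 without a control. The largest q in each deposited list was 0.00928 to 0.0097. The deposited lists hold a fold enrichment (a ratio of pileup to expected background), a −log10 p-value, a −log10 q-value, a rounded score (not used) and the summit offset. No read counts were used here, so the study's count test was not run.

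Peaks were merged at an overlap of 1 bp into 82641 regions, placed with GENCODE M21 and read on GRCm38.p6 (the build of mm10). All 9 genes matched. The search for motifs took both strands and 100 bp to each side of a region's strongest summit. The summit pileup was recovered from fold and p, and at least 99.996% of values per library were whole within 0.05. limma 3.58.1 (R 4.3.3, eBayes with trend) was fitted to log2 pileup centred by library median over the 40159 regions called in all 4 libraries, with Benjamini-Hochberg adjustment over all of them. The script was tested on simulated data, whose noise was a chosen setting. It recovered 55 of 100 changes of 1 log2 unit and 94 of 100 changes of 2. Estimates are Mapk8-KO minus WT. Only regions with a call in every library enter, so a region lost in 1 genotype has no estimate. Other tests were exact and two-sided. Named regions were the leading promoter region and the leading region outside promoters of each gene, the AP-1 region with the highest fold, genotype-specific or called regions, and the 3 largest differences each way. Other regions named (the Bcl2 intron, the Tpx2 promoter, the Bak1 and Bid second regions, the Ftl1 exon, the first Bcl2l11 promoter region and the Bmf region at 5205 bp) were added after their values were seen. Members and gene lists were chosen with earlier results of these data known. The source of the replicates beyond separate samples was not analysed, so p-values refer to these libraries only. The limma fit pools the spread between libraries over all regions, so its SE is not the spread of a single region. Equal replicate numbers share only a number. Alternatives were other windows, a stricter q, equal list lengths, other ranks, log2 fold, a pileup filter, GC content, centring, the replicate block and leaving out each library.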

Additional observations from a re-analysis of the deposited data

How the results depend on the processing

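With 2 libraries per genotype, the counts below moved with a single library, except that 0 member regions passed limma in each fit. Leaving out each library in turn gave a difference in calls per library of -7 to 15, WT-specific regions of 2 to 13, Mapk8-KO-specific regions of 2 to 7, rank gaps of 0 to 9 for WT and 0 to 7 for Mapk8-KO, and limma calls over all regions of 2 to 1148 (higher in WT) and 1 to 442 (higher in Mapk8-KO), in pairs of 44 and 7 without WT 1, 2 and 8 without WT 2, 1148 and 442 without Mapk8-KO 1 and 29 and 1 without Mapk8-KO 2; in these fits the lone library is assumed to vary like the others. Limma called 199 regions higher in WT and 44 higher in Mapk8-KO as reported, 86 and 8 when centred by the median ratio (chosen after seeing the data), 57 and 15 with GC correction, 102 and 13 at a mean pileup of at least 20, and 0 and 0 without a variance trend or on log2 fold (3987 and 2731 at an unadjusted p of 0.05). The replicate block gave 284 and 102, and with GC correction 249 and 120; replicates of equal number deviated together with a Pearson r of 0.0392 across regions. Under the replicate block, 2 regions had a rank gap for WT and 2 for Mapk8-KO. With a rank gap of 5 points there were 2 and 2, with percentiles among shared regions 2 and 1, with ranks by −log10 p 1 and 1, and with 50 kb flanks 1 ranked higher in Mapk8-KO. Kept by nearest start, 1 region was WT-specific and 0 were Mapk8-KO-specific, and at 50% cover 3 were Mapk8-KO-specific. Of these counts from the replicate block on, only the one with percentiles among shared regions has its share over all regions, given above. For the rest no such share was computed, so whether they differ from all regions was not tested. Of 187 alternatives for 17 named regions, 171 kept their sign. The promoter of Bcl2l1 turned to -0.04 on log2 fold, -0.11 with GC correction with or without the block, and ran from -0.06 (without WT 1) to 0.16 over the fits without 1 library, -0.04 being that without Mapk8-KO 2. The Bbc3 promoter turned to -0.06, -0.11 and -0.11 under the first 3 of these and ran from -0.01 (without WT 2) to 0.14 over the fits without 1 library. Over these fits the others that changed sign ran from -0.34 to 0.04 (Mcl1 at 7979 bp, above 0 without Mapk8-KO 2), -0.15 to 0.08 (Bcl2l11 at 1501 bp, without WT 1, and 0.02 without Mapk8-KO 1), -0.18 to 0.02 (Bid promoter, without WT 1), -0.35 to 0.22 (Bmf at 21511 bp, without Mapk8-KO 1, and 0.20 without WT 1) and -0.18 to 0.15 (Bmf at 4756 bp, without Mapk8-KO 2). The causes were not tested. Peak lists hold no value below the calling threshold, so depth limits what a missing call can show.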
